A study of Rattus norvegicus with 12 samples.

Results

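The uninjured kidney was profiled on the 4 arrays titled as a sham operation, out of 12 arrays in the series. These 4 arrays were chosen by their titles alone, and every value below comes from them. Each held total RNA of the whole left kidney of a female rat of the inbred strain F344, 10 weeks old, that had a sham operation and was killed 7 days later. The design text counts 4 rats in the group, so the arrays are read as 4 animals and named arrays 1 to 4 by the replicate number in their titles. The other 8 arrays came from left kidneys 3 days or 7 days after unilateral ischemia and reperfusion, 4 at each time, and were not analysed here. What the sham operation consisted of beyond its name, the hour of death and the feeding state were not given in the sources used here.

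The kidney filters plasma in the glomerulus, where podocytes wrap the capillaries, and then works on the filtrate along a tubule of successive segments. The proximal tubule takes back most of the glucose, phosphate, amino acids and protein and secretes organic acids. It also makes glucose and burns fatty acids. The thick ascending limb reabsorbs salt without water and secretes uromodulin, the distal convoluted tubule adjusts salt, calcium and magnesium, and the collecting duct sets water, potassium and acid excretion through principal and intercalated cells. A whole kidney holds all of these in 1 RNA sample, so fewer cells of a type and less RNA per cell cannot be told apart.

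The arrays were single-colour Agilent arrays with 42877 spots of 30367 different 60-base probes. A gene's level is the log2 of its processed spot signal minus the 75th percentile of that array's spots, so a level of 0 lies at that percentile and 1 unit is a doubling. A gene is called measured where the scanner software marked its probe as well above background on all 4 arrays, and a gene with several probes is given by its brightest one. Each probe binds with its own strength, so the order of levels is an order of brightness and not of RNA amounts. The 75th percentile itself was 348, 346, 225 and 394 intensity units on arrays 1 to 4, and 75.7%, 70.8%, 65% and 76.0% of spots were well above background. Array 3 was the dimmest by both values. No spot was saturated except 3 on array 2. Of 26632 genes and unnamed probes, 16136 (60.6%) were measured on all 4 arrays and 5304 (19.9%) were well above background on none. Among the 19352 that carry a gene name, 11648 were measured. Where the measured share of a list or family below is near 60.6%, nothing is read from its count. The measured genes ran from 9.65 to -3.69, with a median level of -0.42 and a median SD over the 4 arrays of 0.32.

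The label of the tissue was checked against Slc34a1, Pck1 and Umod, which mark the proximal tubule and the thick ascending limb. Slc34a1, the sodium phosphate cotransporter of the proximal brush border, had levels of 5.93, 5.86, 6.01 and 6.10 on arrays 1 to 4 (mean 5.98 ± 0.11, SD, n = 4). Pck1, which encodes the cytosolic enzyme that commits carbon to glucose synthesis, had levels of 5.34, 5.35, 4.99 and 4.97 (5.16 ± 0.21). Umod, the gene of uromodulin, had levels of 5.49, 5.22, 5.57 and 5.30 (5.39 ± 0.16). All of them lay far above the 75th percentile on every array, and no array stood apart for any of them, although Pck1 was lower on arrays 3 and 4 than on arrays 1 and 2. Each was read by 1 probe, of which the first 30 of 60 bases are printed here to show which stretch of the gene each level stands for. In rat build rn4, which the file headers give, the probe of Slc34a1 lies at chr17:15262929-15262988 on the minus strand, that of Pck1 at chr3:164017597-164017656 on the plus strand and that of Umod at chr1:177729224-177729283 on the minus strand. None of the 3 probes holds a tandem run of 20 bases or shares 20 bases with the probe of another gene.
Slc34a1: ctgccaattctgctaactgtgcatagaaaa
Pck1: tgttcggaatctctaaggaattctgggaga
Umod: cttgtaatgtgtctgtacatgaagcccctg

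Genes of the proximal tubule were among the brightest with a known kidney role. Of 36 transport genes of this segment with a probe, 34 (94.4%) were measured, against 60.6% of all genes, with a median level of 1.5. Slc22a6, the basolateral organic anion transporter OAT1, had levels of 6.23, 6.25, 6.46 and 6.37 (6.33 ± 0.11). Slc13a3, the basolateral dicarboxylate transporter that fuels it, had levels of 6.11, 6.31, 6.22 and 6.26 (6.23 ± 0.08). Both varied by less than 0.25 between the lowest and the highest array. The SDs of the list's measured genes ran up to 0.94, that of Slc22a13, with a median of 0.28. Slco1a1, an organic anion transporter of the apical membrane, was not well above background on any array, and Slco4c1 was well above it on 3 arrays. Of the genes of protein uptake, 9 of 9 were measured. Lrp2, the gene of the scavenger receptor megalin, had levels of 6.29, 6.16, 6.08 and 5.98 (6.13 ± 0.13), and its second probe read 5.18, 5.47, 5.55 and 5.21. The order of the arrays differed between those 2 probes. Cubn, whose product cubilin works with megalin, had a level of 3.75 ± 0.16, and Pdzk1, a scaffold of the brush border, 3.30 ± 0.20.

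Brush border peptidases, which trim filtered peptides, were measured for 9 of 10 genes. Ggt1, the gene of gamma-glutamyl transferase, had levels of 3.83, 3.76, 3.19 and 3.52. Dpp4, a dipeptidyl peptidase, had levels of 3.87, 4.07, 3.06 and 3.29, and Mep1a, a subunit of meprin, 3.92, 3.75, 3.23 and 3.30. Array 3 was the lowest for each of the 3. Ace, the angiotensin-converting enzyme, had the widest spread of the measured members (1.14, 1.38, 0.25 and -0.17, SD 0.73).

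Metabolic genes of the proximal tubule formed the brightest lists. All 9 genes of glucose synthesis and fructose use were measured, with a median level of 3.47. Fbp1, the bisphosphatase of glucose synthesis, had levels of 6.16, 6.24, 6.19 and 6.52 (6.28 ± 0.16). Khk, the fructokinase, was at 5.24 ± 0.06. The catalytic subunit of glucose 6-phosphatase, G6pc1, had levels of 4.00, 3.91, 3.05 and 2.92. Arrays 3 and 4 thus lay about 1 unit below arrays 1 and 2, the same side as for Pck1. The share of all measured genes that split the arrays this way is not given here. No shared pattern is therefore read from this split, here or for genes named below. All 21 genes of amino acid and one-carbon metabolism were measured, at a median of 3.46. They were led by Miox (6.66 ± 0.13), the oxygenase that starts the breakdown of inositol, Oat (6.36 ± 0.24), the ornithine aminotransferase, and Hao2 (5.86 ± 0.27), a peroxisomal hydroxyacid oxidase. Of 25 genes of P450 and drug metabolism, 22 were measured. Cyp4a3, a fatty acid hydroxylase, had levels of 5.67, 5.64, 5.68 and 5.63, an SD of 0.03 that was among the smallest of any gene named here. Ugt2b7 was not well above background on any array.

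Genes of fuel use were measured completely: 22 of 22 of fatty acid oxidation and ketogenesis and 18 of 18 of the citrate cycle, which are mostly mitochondrial, and 22 of 22 glycolytic isoforms of the cytosol. Etfb, the beta subunit of the flavoprotein that takes electrons from acyl-CoA dehydrogenases, had levels of 5.88, 6.10, 5.85 and 5.96, followed by Acaa1a (4.58 ± 0.12) and Decr1 (4.14 ± 0.16). Sdha (5.58 ± 0.15) and Sdhb (4.22 ± 0.17), subunits of succinate dehydrogenase, and Idh2 (5.07 ± 0.06), the mitochondrial isocitrate dehydrogenase, were the brightest of the citrate cycle. Gapdh (6.11 ± 0.07), Eno1 (5.55 ± 0.12) and Ldhb (4.68 ± 0.07) led the glycolytic isoforms.

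The thick ascending limb was read by 14 genes, of which 11 were measured, with a median level of 1.03. After Umod its brightest members were Egf, whose precursor is made in the distal nephron, at 3.21, 3.65, 3.23 and 3.11, and Slc12a1, the furosemide-sensitive cotransporter NKCC2, at 3.27, 2.98, 3.46 and 3.01. Array 2 was the highest for Egf and the lowest for Slc12a1. Cldn14, a claudin that blocks the paracellular calcium path, was not well above background on any array. Of 16 genes of the distal convoluted and connecting tubule with a probe, 14 were measured. Fxyd2, the gamma subunit of the sodium pump, was at 6.06 ± 0.11, and Kcnj16, a basolateral potassium channel, at 5.02 ± 0.19. Klk1, tissue kallikrein of the connecting tubule, had levels of 6.28, 5.34, 5.62 and 5.85, with array 1 highest and array 2 lowest. Slc12a3, the thiazide-sensitive cotransporter NCC that defines the segment, had levels of 3.41, 3.84, 3.47 and 3.16. Its second probe read 2.27, 2.76, 2.47 and 1.01, and array 4 was the lowest by both.

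Principal cells of the collecting duct were read by 13 genes, and 12 were measured, at a median of -0.01. Aqp2, the vasopressin-regulated apical water channel, had levels of 3.48, 3.03, 3.95 and 3.87 (3.58 ± 0.42). Aqp3, the basolateral water channel, had levels of 0.62, 1.0, 2.10 and 1.89 (1.4 ± 0.71), higher on arrays 3 and 4 than on arrays 1 and 2. Hsd11b2, which shields the mineralocorticoid receptor from glucocorticoids, was at 2.56 ± 0.36, and Sgk1, the kinase that the receptor induces, at 2.08 ± 0.24. Elf5, a transcription factor of principal cells, was not well above background on any array. Of 16 intercalated cell genes 13 were measured, at a median of 2.05. Slc4a1, the anion exchanger AE1 of the acid-secreting form and also of red cells, had levels of 2.80, 2.01, 3.21 and 2.90. Atp6v1b1, the proton pump subunit typical of these cells, had levels of 2.32, 1.77, 2.23 and 2.34. Array 2 was the lowest for both. Atp6v0a4, another pump subunit, was the brightest of the list at 4.07 ± 0.14, and Car2, the cytosolic carbonic anhydrase, followed at 3.24 ± 0.19. Of 9 genes of osmolyte handling in the medulla 7 were measured, led by Slc6a6, the taurine transporter, at 3.08 ± 0.13. Slc14a2, the urea transporter of the inner medulla, was not well above background on any array.

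**Figure D1:**
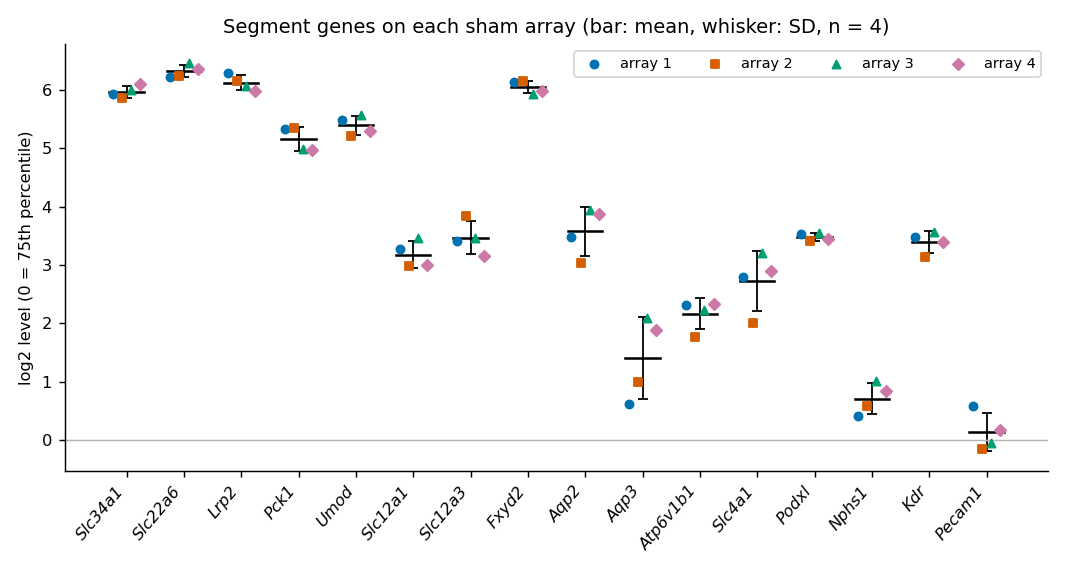
Log2 level (y axis, 0 = 75th percentile of the array) of 16 genes of the kidney's segments on each of the 4 sham arrays, with the mean as a bar and the SD as whiskers (n = 4). Slc22a6 and Slc34a1 have an SD of 0.11 each, while Aqp3 and Slc4a1 show the widest spread of these 16 genes (SD 0.71 and 0.51).

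Glomerular and vascular genes were mostly measured and dimmer. Of 17 podocyte genes 13 were measured, at a median of 0.41. Podxl, the sialoprotein podocalyxin that podocytes share with endothelium, had levels of 3.54, 3.41, 3.55 and 3.45. Nphs1, which encodes nephrin of the slit diaphragm, had levels of 0.41, 0.58, 1.01 and 0.84. Arrays 3 and 4 were higher for Nphs1 than arrays 1 and 2. Clic5, a chloride channel relative of the foot processes, was at 1.54 ± 0.35. Synpo, which encodes the actin-binding protein synaptopodin, had levels of 1.27, 0.28, 1.52 and 0.74, with array 2 lowest. Of 17 endothelial genes 16 were measured, at a median of 0.24, led by Kdr, the main receptor for VEGF, at 3.39 ± 0.19. Eng, an endothelial coreceptor for TGF-beta, had levels of 3.10, 2.74, 2.68 and 2.75, with array 1 above the rest, and Plvap, of the diaphragms of fenestrae, 2.44, 2.08, 2.02 and 1.28. Sox17, a factor of arterial endothelium, was not well above background on any array. Smooth muscle, mesangium and pericyte genes were measured for 9 of 11, led by Mylk (3.40 ± 0.10), the myosin light chain kinase. Pdgfrb, a receptor of mesangial cells and pericytes, was at 0.79 ± 0.19.

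Interstitial matrix genes were measured for 15 of 19. Sparc, a matricellular protein, had levels of 4.02, 3.70, 3.37 and 3.82, Col3a1 of fibrillar collagen 3.57, 3.30, 2.72 and 2.90, and the proteoglycan gene Bgn 3.24, 2.87, 2.78 and 3.38. Array 3 was the lowest for all of them. Col1a1, the other main fibrillar collagen gene, had levels of 3.33, 2.26, 2.17 and 2.40, with array 1 highest. Lum and Postn, a proteoglycan and a matrix protein of wounds, were not well above background on any array.

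Hormone and receptor genes of the kidney were measured for 17 of 23. Vegfa, the endothelial growth factor that podocytes and tubules make, was at 3.21 ± 0.15, and Vdr, the vitamin D receptor, at 3.19 ± 0.24. Epo, the gene of erythropoietin made by interstitial cells, was well above background on 1 array only, with levels of -4.19, -0.95, -3.43 and -4.30, and that array was array 2. Epo was singled out after its values were seen. Calcr, Drd1 and Agtr1b, receptors for calcitonin, dopamine and angiotensin II, were not well above background on any array. Of 22 transcription factors with kidney roles 18 were measured, led by Hnf4a (3.33 ± 0.41), a master factor of the proximal tubule, and by Pax2 and Pax8 (1.42 ± 0.40), factors of nephron development. Pax2 had levels of 2.66, 1.35, 1.66 and 1.02, with array 1 highest.

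Genes that mark a damaged or dividing tubule were dim in these kidneys. Of 17 tubular injury genes with a probe 12 (70.6%) were measured, a larger share than the 60.6% of all genes. Their median level was -1.64, against -0.42 for all measured genes, and 1 of them had a mean level at or above 0. That one was Tff3, a trefoil peptide, at 0.96, 1.07, 0.33 and 0.17. Vcam1 (-0.24 ± 0.47) and Anxa2 (-0.28 ± 0.20) came next. Havcr1, the gene of KIM-1, a phagocytic receptor of damaged proximal cells, had levels of -2.39, -2.54, -2.01 and -2.44, and Lcn2, the gene of NGAL, -2.05, -1.89, -1.86 and -1.80. Neither differed between arrays by more than 0.53. Krt20, Il18 and Gpnmb were not well above background on any array. Of 23 cell cycle genes with a probe 11 (47.8%) were measured, a smaller share than the 60.6% of all genes, and Mcm7, Mcm4 and Pcna, which act at the replication fork, were the brightest at 0.85 ± 0.28, 0.24 ± 0.40 and 0.01 ± 0.59. Bub1, Ccnb2, Top2a, Mcm6 and Cks2 were not well above background on any array, and Mki67 had no probe.

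Immediate early genes, which many cells switch on within minutes of a stimulus, were split. Junb had levels of 5.57, 5.20, 5.48 and 5.57, and its relative Jund 3.73, 3.96, 3.96 and 4.04. Both lay among the brighter genes on every array. Fos, Egr2 and Atf3 were not well above background on any array, and Egr1 had levels of -1.54, -1.93, -0.22 and -0.14. Arrays 3 and 4 were higher for Egr1 than arrays 1 and 2. Of 17 clock genes with a probe 14 were measured, led by Dbp, an output gene of the clock, at 3.94, 4.11, 4.00 and 3.97. Bhlhe40 (3.00 ± 0.23) and Hlf (2.94 ± 0.49) followed. Bmal1, the activator at the core of the clock, was well above background on 1 array, and Bhlhe41 on none. Egr1 and Bmal1 were named because the roles of their lists turn on them.

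Among the leukocyte lists, antigen presentation had the highest median level (3.06). Of 8 genes of MHC class II 7 were measured, with Cd74, the invariant chain, at 5.73, 5.64, 5.62 and 5.89, RT1-Db1 at 5.28 ± 0.17 and RT1-Bb at 3.79 ± 0.18. These levels varied little between arrays. Macrophage genes were measured for 11 of 16 (68.8%, against 60.6% of all genes), with Aif1 at 2.28 ± 0.29 and Fcer1g, the adaptor of Fc receptors, at 2.14 ± 0.45. The brightest member by value, Cx3cr1 at 4.55 ± 0.26, was read by a probe with a tandem repeat, a kind of probe described below. Cd68 was well above background on 3 arrays and Mrc1 on none. T and NK cell genes were measured for 3 of 12, B and plasma cell genes for 3 of 7 and neutrophil genes for 1 of 9. Cd4, at 0.07 ± 0.25, was the brightest of the first of these lists, and Cd3e, Il7r and Cd2 were not well above background on any array, nor were Ms4a1 and Cd79b of B cells or Elane, S100a8 and Camp of neutrophils. Interferon response genes were measured for 10 of 16 (62.5%), near the 60.6% of all genes. Mx2, which encodes a GTPase that acts against viruses, had levels of 7.43, 6.85, 7.65 and 7.32. That was far above Bst2 and Mx1 at 0.34 ± 0.58 and 0.32 ± 0.28, while Oas1a and Ifit1 were not well above background on any array. Oas1b, a relative of Oas1a outside this list, was also bright at 6.79, 6.66, 7.12 and 6.65.

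**Figure D2:**
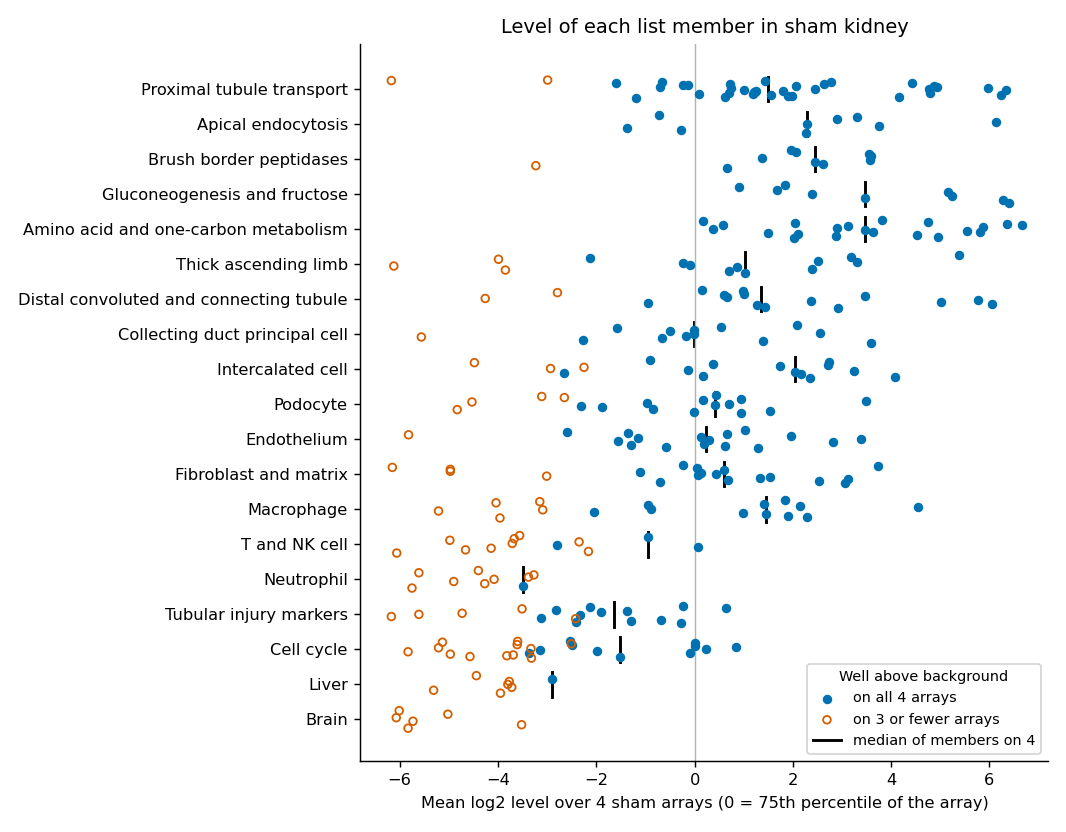
Mean log2 level over the 4 sham arrays (x axis, 0 = 75th percentile of the array) of each gene in 19 lists, filled where the gene was well above background on all 4 arrays and open where on 3 or fewer, with the median of the filled points as a line. The metabolic lists of the proximal tubule lie furthest right (median 3.47 for glucose synthesis and fructose use), and most open points belong to the lists of other tissues, leukocytes and the cell cycle.

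Genes of neighbouring and remote tissues were checked in the same way. Liver genes were measured for 1 of 7, with Alb and Ttr not well above background on any array. Brain genes were measured for 0 of 6, and Gfap, the one exception, was well above background on 2 arrays. Adipose genes were measured for 2 of 8 and adrenal genes for 3 of 10. Pnmt and Th, enzymes of catecholamine synthesis, had mean levels of 0.39 ± 0.17 and -0.44 ± 0.39, and Cyp21a1, a steroid hydroxylase, had -1.22 ± 0.15. Cyp11b1, Cyp11b2, Hsd3b1, Dbh and Chga, which define the adrenal cortex or medulla, were not well above background on any array. Skeletal muscle genes were measured for 3 of 7, with Acta1 at -0.49 ± 0.19. Urothelial genes were measured for 4 of 6 (66.7%, against 60.6% of all genes), with Upk1a at -1.74 ± 0.10. Of 3 red cell genes with a probe all were measured, but 1 of them is Slc4a1, which intercalated cells also express, and Hbb was at 0.28 ± 0.38.

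In a few lists the measured members went against the tissue. Pancreas genes were measured for 5 of 6, with Ins2 at 0.71, 0.23, 0.52 and 0.65 and Ins1 at -1.12 ± 0.17, while Prss1, which encodes the main trypsinogen, was not well above background on any array. Prm1, the protamine gene of sperm, had levels of 3.15, 3.28, 3.20 and 3.07 in these female rats, while the other sperm genes Tnp1, Tnp2 and Odf1 were not well above background on any array. Of the Y-linked genes 2 had a probe, and both counted as measured in female rats by their brightest probe. Uty had levels of -0.86, -0.41, -0.54 and -0.86 by that probe and -3.66, -4.43, -5.06 and -4.11 by another, which was well above background on 1 array only. The position listed for the brighter probe is on the X chromosome, at chrX:15912215-15912274 on the minus strand, so the level of that probe is not read as that of a Y-linked gene. Sry had levels of -3.70, -3.58, -2.56 and -3.37. The probes of Prm1, Ins2, Uty, Sry and Mx2 are printed by their first 30 bases because their levels go against the organ, the sex or the rest of their list. The whole Prm1 probe holds 25 distinct triplets, against a median of 36 over all probes, and so counts as a repeat probe as defined below. None of the 5 probes shares 20 bases with probes of other genes.
Prm1: tgtcgcagacggaggaggcggtgctgcagg
Ins2: ggttctcacttggtggaagctctctacctg
Uty: tgagagtaattctcgaaagacctacatagt
Sry: gaaaagcatttatttacagcctgtggacat
Mx2: atggatggtactgggctttgtatgtttagg

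Gene families gave a second view of the organ. The members named for a family are its brightest and were chosen after their values were seen. Families were formed by gene name. All 39 genes named as subunits of complex I were measured at a median of 2.84, 23 of 25 of complexes III and IV at 4.10 and 18 of 18 of the ATP synthase at 4.57. Ndufa4 (5.80 ± 0.14), which stands with complex I by its name only, Uqcr11 (6.26 ± 0.14) and Atp5me (6.16 ± 0.08) were the brightest of each. Cytosolic ribosomal proteins were measured for 85 of 91 genes at a median of 4.53 and took 2.90 ± 0.265% of the summed signal of all genes, led by Rpl41 (6.91 ± 0.06) and Rps29 (6.45 ± 0.07). Mitochondrial ribosomal proteins, measured for 66 of 72, were dimmer at a median of 0.82, and the proteasome subunits, measured for 38 of 41, lay at 1.43. The median SD within these families ran from 0.14 for complexes III and IV, the ATP synthase and the cytosolic ribosome to 0.29 for the proteasome.

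Of 375 solute carriers 250 (66.7%) were measured, near the 60.6% of all genes, and together the family took 1.15 ± 0.0804% of the signal. Its 3 brightest members, Slc22a6, Slc13a3 and Slc34a1, are all proximal. Of 79 cytochrome P450 genes 35 were measured, led by the epoxygenase Cyp2c23 (5.67 ± 0.14) and Cyp4a3. Glutathione transferases were measured for 23 of 28, led by Gsta5 (6.52 ± 0.08) and Gstz1 (5.88 ± 0.19). Among 16 sulfotransferases 5 were measured, with Sult1c2a at 6.21 ± 0.20, and among 12 UDP glucuronosyltransferases 5, with Ugt1a6 at 4.29 ± 0.11. Aquaporins were measured for 10 of 11, in the order Aqp1 (4.16 ± 0.19), Aqp2, Aqp6 (2.34 ± 0.41), Aqp7 (1.91 ± 0.39) and Aqp3. Aqp1 serves the proximal tubule and thin limb, Aqp6 the intercalated cell and Aqp7 the late proximal tubule. Claudins were measured for 15 of 26 (57.7%, against 60.6% of all genes), led by Cldn2 (1.26 ± 0.35), the leaky claudin of the proximal tubule. The proton pump was measured for 23 of 25 subunits.

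Families of other organs were mostly dark. Olfactory receptors were measured for 122 of 1176 genes (10.4%), with 778 well above background on no array, vomeronasal receptors for 18 of 165 and taste receptors for 4 of 35. The measured olfactory receptors had a median level of -2.39, and the brightest, Olr1572, was at 2.06 ± 0.16. Vom2r34, listed as a vomeronasal receptor, had levels of 5.65, 5.36, 5.76 and 5.22, brighter than Umod by its mean (5.50 ± 0.25), and next in its family came Vom1r114 at 0.90 ± 0.71. Keratins were measured for 21 of 50, with Krt7, a keratin of the collecting duct and urothelium, at 1.44 ± 0.03. Interleukins were measured for 11 of 39, with Il34, a ligand of the macrophage receptor CSF1R that tubules make, at 3.65 ± 0.22. Chemokines were measured for 15 of 34, led by Ccl24 at 5.29 ± 0.29.

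The brightest spots of the array were not those of kidney transport. Of the 100 brightest genes, 12 were probes of the mitochondrial genome, 53 were read by what is here called a repeat probe, 7 by a probe sharing a run of 20 bases with probes of at least 3 other genes, and 28 by none of these kinds. A repeat probe is one with a tandem run of at least 20 bases, of a unit of 1 to 6 bases, or with at most 25 distinct triplets, so it need not be made largely of a repeat. That of Mt2A, a metallothionein gene, has 22 distinct triplets and a longest run of 12 bases. Among the 100 brightest probes 43 had such a tandem run, against 125 (0.412%) of all 30367 probes, and 45 had at most 25 distinct triplets, against 1.47% of all. The 100 genes took 30 ± 3.19% of the summed signal (29.4%, 27.6%, 34.6% and 28.3% on arrays 1 to 4), and the repeat probes alone took 15 ± 1.6%. Array 3 had the largest share, and it was the highest array for 50 of the 53 repeat probes and for 10 of the 12 mitochondrial ones. The brightest probe of all, the unnamed A_64_P095825 on chromosome 12, had levels of 9.47, 9.52, 10.0 and 9.60. The mitochondrial probe described as ATP synthase protein 8, A_64_P158343, had levels of 8.82, 8.86, 9.20 and 8.88, and that of cytochrome c oxidase subunit 1, A_44_P493894, 7.75, 7.95, 8.40 and 8.06. All of them were highest on array 3.

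**Figure D3:**
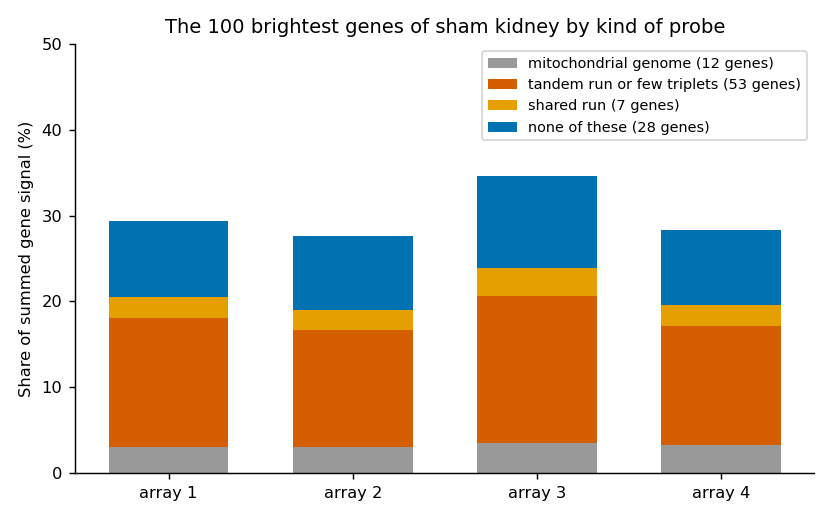
Share of the summed gene signal (y axis, %) taken by the 100 brightest genes on each sham array, stacked by the kind of probe that read them. Probes with a tandem run of 20 bases or few distinct triplets take the largest part on every array, and array 3 has the tallest column (34.6%).

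Genes not known for the kidney were among the brightest. Iba57, an iron-sulfur assembly factor, had levels of 9.28, 9.08, 9.77 and 9.27 by its brightest probe, while its other probes had means of 1.13 and 1.17. Pax3, a factor of muscle and neural crest, had 8.35, 8.11, 8.84 and 8.25 by a probe and a mean of -1.84 by another. Ptprn2, a phosphatase-like protein of secretory granules, had a mean of 8.50 by a probe and -2.07 by another. In each case the bright probe holds a run of TG or AC and the dim one does not. Spag7 (9.11 ± 0.27), Tcf15 (8.99 ± 0.30), Cyb5r1 (8.64 ± 0.22), Glra2 (7.94 ± 0.27) and Hivep3 (7.91 ± 0.28) were likewise read by probes with a run of AC, on either strand. Flot2 (8.16 ± 0.21), Tp63 (7.18 ± 0.19) and a gene listed as LOC100366147 (7.42 ± 0.23) were read by probes with runs of other units. Whether the runs set these levels was not tested. The runs are shown in capitals in 30-base stretches of these probes, to set the probe letters beside the levels, and the dimmer probe of Pax3 follows for comparison.
Iba57: tatgtttaTGTGTGTGTGTGTGTGTGTGTG
Ptprn2: ttcatcatACACACACACACACACACACAC
Pax3, brighter probe: acattccaTGTGTGTGTGTGTGTGTGTGTG
Pax3, dimmer probe: tcgcatcctgaggagtaaatttggaaaagg
Flot2: taatcactTGTCTGTCTGTCTGTCTGTCTG
Tp63: acagGCAGCAGCAGCAGCAGCAGCAccaac
LOC100366147: gaagaagaAGGAGGAGGAGGAGGAGGAGGA

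Another set of bright probes shared a longer stretch that is no tandem repeat. LOC310926, listed as a hypothetical protein, had levels of 9.27, 9.15, 9.79 and 9.21, and the unnamed probe A_64_P115964 had 9.45, 9.30, 10.0 and 9.45. Both were highest on array 3. The 2 probes, placed on unassigned contigs of rn4, share a run of 36 bases, shown in capitals. LOC257642, listed as an rRNA promoter binding protein, had levels of 9.17, 9.16, 9.99 and 9.07 and shares 23 bases with the probe of Ftl1, the ferritin light chain, of which 22 fall in the stretch printed for Ftl1. Ftl1 itself had levels of 7.17, 6.99, 7.26 and 7.13. LOC310926 and A_64_P115964 share bases with too few other genes to count as shared-run probes, so they stand among the 28 of none of these kinds. Ribosomal RNA sequence was not used here, and whether these probes read ribosomal RNA was not tested.
LOC310926: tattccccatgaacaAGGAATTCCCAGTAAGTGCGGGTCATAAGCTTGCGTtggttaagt
A_64_P115964: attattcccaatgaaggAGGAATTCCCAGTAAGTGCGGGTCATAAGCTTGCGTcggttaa
LOC257642: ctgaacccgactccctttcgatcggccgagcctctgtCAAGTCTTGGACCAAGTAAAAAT
Ftl1: gcctctccCAAGTCTTGGACCAAGTAAAAA

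A bright probe could also disagree with its gene's other probes without either feature. Dcun1d1, a ligase component for NEDD8, had a mean of 8.92 by its brightest probe and 1.02 and 0.62 by its other probes, and none of these holds a tandem run or a shared one. Repeats scattered through the genome were not searched for, so a probe of none of these kinds may still hold one. Over the 1695 genes with several measured probes the median gap between the brightest and the dimmest was 1.20 and the 90th percentile 3.39. For 390 genes a probe was measured on all 4 arrays while another was well above background on none. With probes of a repeat, a shared run or the mitochondrial genome set aside, a choice made after seeing the data, the first gene with a known renal role was Kap, the kidney androgen regulated protein, at rank 10. Kap had levels of 7.84, 7.81, 7.51 and 7.63 (7.70 ± 0.15), lower on array 3 than on the others, whereas most of the bright probes were highest there. Further down came, among others and chosen after their values were seen, Mx2, Fth1 (7.08 ± 0.06), the ferritin heavy chain, Rpl41 and the ubiquitin gene Ubb (6.86 ± 0.10). Atp1b1, the beta subunit of the sodium pump, was at 6.73 ± 0.14. A probe described as an L1 retroposon, A_64_P399208 at 6.85 ± 0.18, also stayed in this ranking. The Kap probe lies at chr4:170652236-170652295 on the minus strand of rn4, and the bright Dcun1d1 probe, printed with the brighter of its other probes, at chr2:122339624-122339683 on the minus strand.
Kap: aagaaagaacaaggaagtggtcctggatga
Dcun1d1, brighter probe: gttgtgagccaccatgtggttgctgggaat
Dcun1d1, second probe: ataaaattggaatagatggtatacagcagt

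The spread between the 4 kidneys was small for most genes and depended on the level. Of the 16136 measured genes 77.4% had an SD under 0.5 and 282 (1.75%) an SD over 1. The median SD of 0.317 corresponds to 1.246-fold. It was 0.489 for the 3163 genes between -4 and -2, 0.259 for the 4052 between 0 and 2, 0.138 for the 648 between 4 and 6, and 0.191 for the 171 above 6. Pearson's r between arrays, across genes, ran from 0.955 to 0.971, and the lowest was that of arrays 2 and 3. Genes are not independent replicates, so these values describe the arrays and carry no test.

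**Figure D4:**
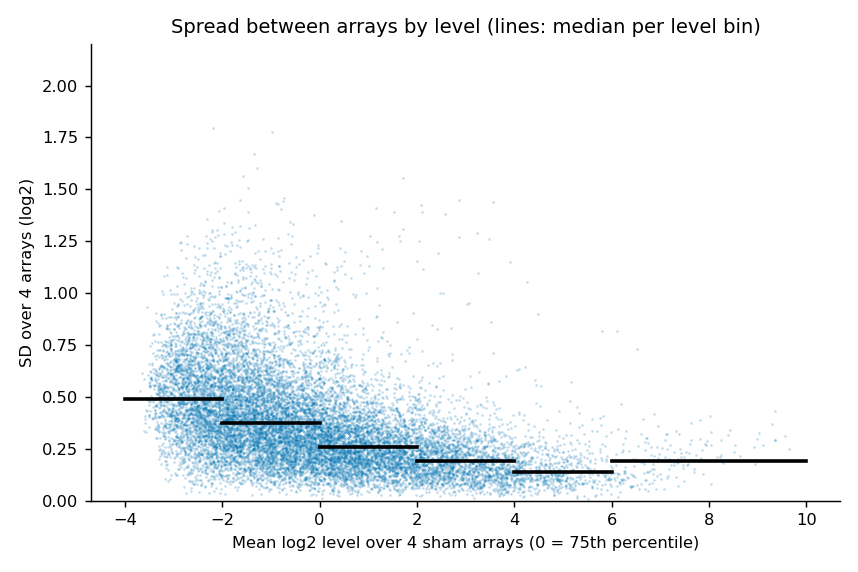
SD over the 4 sham arrays (y axis, log2) against mean log2 level (x axis, 0 = 75th percentile) for the 16136 measured genes, with the median SD per level bin as lines. The spread narrows from 0.489 in the dimmest bin to 0.138 between 4 and 6 and is 0.191 above 6, and 1 gene lies above the axis limit.

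The brightest genes were higher on array 3. Its level minus the mean of the other arrays had a median of 0.289 for genes above 6, against -0.095 between 2 and 4 and -0.06 between 4 and 6. Array 3 had the lowest 75th percentile of intensity and the fewest spots well above background, and the part of these in the difference was not tested. The lowest level well above background was -3.21 on array 3 and -4.08 to -4.20 on the others. A dim gene therefore counted as measured only where array 3 was high enough, which partly fixes the median of 0.582 between -4 and -2, and nothing is read from it.

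Several of the kidney's gene lists leaned in opposite directions on arrays 2 and 3. For each list the median difference of its measured genes from their 4-array mean was taken. The 4 differences of a gene sum to 0, so a low array is in part matched by higher ones through the centring alone. On array 2 proximal transport genes had a median of 0.13, with 25 of 34 above their mean, and on array 3 -0.20, with 6 of 34 above. Brush border peptidases had 0.22 and -0.39, with 0 of 9 above their mean on array 3. Collecting duct principal cell genes had -0.40 and 0.34, with 3 of 12 above on array 2 and 11 of 12 on array 3. Intercalated cell genes had -0.43 and 0.24 with 1 and 10 of 13 above, and podocyte genes -0.32 and 0.28 with 1 and 11 of 13. All measured genes had -0.01 and 0.06, with 48.3% and 56.8% above their mean. Array 2 was the lowest for Aqp2, Slc4a1 and Atp6v1b1, whose levels are given above. Because the background mark favours dim genes that are high on array 3, the medians were also taken over members with a mean level of 0 or more, a choice made after seeing the data. They were then -0.53 on array 2 and 0.32 on array 3 for 5 principal cell genes and -0.42 and 0.20 for 10 intercalated cell genes. They were -0.23 and 0.29 for 8 podocyte genes and 0.10 and -0.15 for 28 proximal transport genes, the same signs as before. All 6890 measured genes of that level had 0.04 and -0.05, with 59.7% and 42.1% above their mean. The signs of the proximal list were thus also those of bright genes in general.

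The lists did not divide by the tubule's order. Thick ascending limb genes had -0.18 on array 2 and 0.23 on array 3, the signs of the collecting duct lists. Genes of the distal convoluted and connecting tubule had 0.12 and -0.09 and those of medullary osmolyte handling 0.20 and -0.08, the signs of the proximal lists. Macrophage genes had -0.16 and -0.22 and hormone and receptor genes -0.10 and -0.08, below 0 on both arrays. Interstitial matrix genes had 0.04 and -0.36. Leanings of both kinds also occurred in families not picked for a segment. Olfactory receptors, at a median level of -2.39, had -0.49 and 0.53 and keratins -0.24 and 0.46, the signs of the collecting duct lists. ATP synthase subunits had 0.08 and -0.13, proteasome subunits 0.09 and -0.19 and glutathione transferases 0.14 and -0.16, the signs of the proximal lists. Serpins had 0.04 on both arrays. With 1 kidney per array these leanings have no replicate and no test, and the part of dissection, of RNA yield or of the array's brightness in them was not tested.

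**Figure D5:**
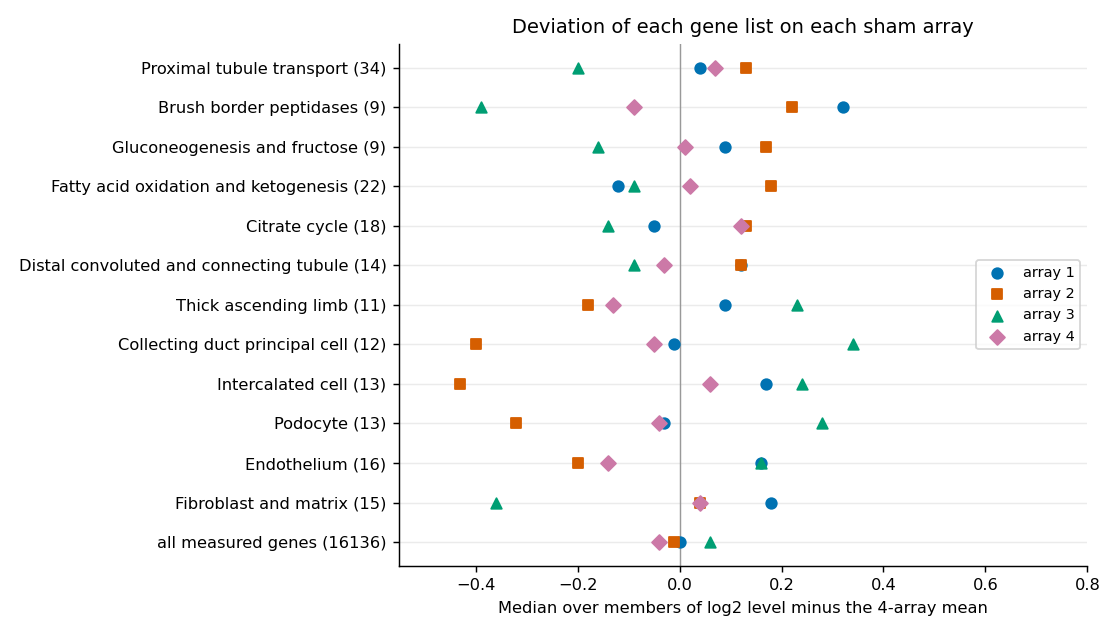
Median, over the measured genes of each list, of the log2 level on an array minus the gene's 4-array mean (x axis), with 1 marker per sham array and the number of genes in parentheses. Proximal lists lie right of 0 on array 2 and left of 0 on array 3, and collecting duct, intercalated and podocyte lists lie on the opposite sides.

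Among genes with a mean level at or above 0, the widest spread belonged to a probe with no gene. A_64_P165821, at chr1:191998275-191998334 on the minus strand of rn4, had levels of -2.84, -3.41, -1.62 and 8.86 (SD 5.79). It was bright on array 4 alone, and only through that array did its mean reach 0. Hyal1, a lysosomal hyaluronidase, had levels of 0.82, 0.90, 3.12 and 3.50, higher on arrays 3 and 4 than on arrays 1 and 2. Ugt2b35, a glucuronosyltransferase, had levels of 2.81, 2.81, 2.05 and 0.36, and Gja3, a connexin of the lens read by a repeat probe as defined above, 1.02, 0.91, 1.41 and -1.55. Both were lowest on array 4. Slc22a13, an organic anion transporter of the proximal tubule that was named because 2 probes show its spread, had levels of 2.36, 1.55, 0.78 and 0.18 by a probe and 0.95, 0.66, -0.45 and -0.52 by the other. The arrays had the same order in both.
A_64_P165821: taaaccttctaaatccctgagccatggcct

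Probes of 1 gene could also differ in spread. Ralgdsl1 had levels of 0.83, 0.76, 0.28 and -2.12 by a probe and -0.11, 0.25, 0.00 and 0.03 by another. Array 4 was low by the former probe only. Kat2b, a histone acetyltransferase, had -0.55, -0.94, -1.4 and -3.33 by a probe and -0.69, -0.50, -0.18 and -0.52 by another, again with array 4 low for 1 of them. At the other end, Papss2, which makes the sulfate donor, had an SD of 0.012 around 0.05.

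A group of probes was low on array 2 alone. Probes were counted at which 1 array lay at least 1 unit below all the others, where those others were all well above background and had a mean level of 0 or more. Of these array 2 had 100, and arrays 1, 3 and 4 had 6, 15 and 49. Of the 100, 55 lie on unassigned contigs of rn4, against 512 of all 30313 probes with values on the 4 arrays. The count is 64 with random contigs and probes without a position included. Of the 100, 19 are described as spindlin-like, and that description and those that follow were picked because they occur in this list, so their counts are a description. Among 35 spindlin-like probes that were well above background on arrays 1, 3 and 4, 34 were lowest on array 2, by a median of 2.10 below the mean of the others. Probes described as Y-linked testis-specific protein were lowest there in 8 of 8 cases, by a median of 2.01. Those described as Discs large homolog 5 were lowest there in 10 of 12 cases, by a median of 0.92. Those described as spermatogenesis associated were so in 27 of 37 cases, by a median of 0.7. Over all 18663 probes well above background on the same arrays, 5680 (30.4%) were lowest on array 2, and the median gap was 0.03. On unassigned contigs 229 of 367 (62.4%) were lowest there, with a median gap of 0.63. LOC301816, a spindlin-like gene, had levels of 2.58, -0.15, 1.76 and 2.67, and AABR03128419 had 3.45, 0.51, 3.16 and 3.15. The probes share short runs, shown in capitals for 2 pairs to show how alike they are: 23 bases between LOC301816 and A_64_P100556, and 18 between AABR03128419 and AABR03128582. A run of 12 bases, ATGTCATGCCCC, occurs in 7 of these 100 probes and in no other probe of the array. They are therefore not counted as independent genes.
LOC301816: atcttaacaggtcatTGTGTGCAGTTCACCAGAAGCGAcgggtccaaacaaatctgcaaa
A_64_P100556: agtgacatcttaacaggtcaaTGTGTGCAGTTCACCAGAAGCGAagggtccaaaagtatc
AABR03128419: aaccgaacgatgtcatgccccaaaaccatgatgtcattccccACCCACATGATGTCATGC
AABR03128582: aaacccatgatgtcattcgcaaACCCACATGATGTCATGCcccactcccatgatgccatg

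The 4 arrays came from 3 slides and were scanned on 2 days, with arrays 1 and 4 on the first slide and day and arrays 2 and 3 on a slide each on the second day. A limma fit of the second scan day against the first called 0 of 16136 measured genes (0%) at an adjusted p of 0.05, while 564 (3.5%) had an unadjusted p under 0.05 and the smallest adjusted p was 1. The 2 arrays a day limit the precision. Aqp3 and G6pc1, whose arrays 3 and 4 differed from arrays 1 and 2, do not split by scan day.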

How the data were processed

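The series holds 12 arrays, of which the 4 sham arrays were used. Per the file headers, the scanner software was Agilent Feature Extraction 9.5.1.1, probe positions are on rat build rn4, and the deposited intensity values are processed signals, background-subtracted and detrended within each array with no scaling between arrays. Per the labels, total RNA was extracted with an RNeasy Micro Kit and labelled with Cy3 by a kit whose name is for DNA labelling. The deposited value table holds log2 values of the same arrays made by the authors. Set against the scanner values these are centred on each gene (slope 1, r = 1 for deviations), the baseline of the centring is unknown, and the column medians are -0.00115, -0.0294, 0.303 and 0.0118. Its 8 columns of other arrays were not used.

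Outlier spots (396 to 510 an array) were left out, log2 signals were set against each array's 75th percentile, spots of a probe were averaged, and a gene was given by its brightest probe. A probe counted as well above background where most of its spots were. Probe names were updated through RefSeq accessions for 17990 probes and through symbols, synonyms or other accessions for 2370, 616 and 192. For 1919 the file's name was kept, and 7280 stayed unnamed. The number of arrays limits the precision, and an SD covers animal, dissection and array together. Scan days were compared with limma 3.58.1 (lmFit and eBayes, Benjamini-Hochberg adjustment) in R 4.3.3, tested on simulated data, and all else was done in Python 3.11.15 with pandas 2.3.3 and numpy 2.4.6.

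The 41 gene lists, 26 families and the choice of what to report were made with earlier results of these data known. Genes were named from the 30 brightest, the 3 brightest members of each list, up to 5 members above background on no array and any on which its role turns, the 20 largest and 5 smallest SDs at a level of 0 or more, and up to 5 genes whose probes differ in SD. Beyond these, names were chosen after their values were seen, as were the kinds of probe. Some genes that the rule names are not reported here. Alternatives were quantile, total signal and measured-probe scaling, normexp correction with an offset of 50, the mean of all probes, other detection rules, the deposited value table and leaving out each array.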

Additional observations from a re-analysis of the deposited data

Results flagged for a closer look

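Of the named genes and probes, 157 with 4 values were examined, Oas1b aside. For 10 (6.37%) the highest or lowest array was separated from the next by more of the whole range than Dixon's critical value for 4 samples. Chance marks about 1 in 20 such groups, and over all 16136 measured genes 945 (5.86%) were marked, a share near that of the named ones. AABR03128419, AABR03128582, A_64_P165821 and Gja3 were named for their large SD. Their marks were thus partly fixed by that choice, and nothing is read from them. Array 2 was apart at 0.51 for AABR03128419 and at 1.31 for AABR03128582, with the nearest array at 3.15 and 3.77. These are 2 of the related probes low on that array. Array 3 was apart at 9.20 for A_64_P158343, the mitochondrial probe of ATP synthase protein 8 (nearest 8.88), and at 9.99 for LOC257642 (nearest 9.17), both above the rest. It was below the rest at -5.22 for Cd68 (nearest -2.47), a lysosomal protein of macrophages. Array 4 was apart at 8.86 for A_64_P165821 (nearest -1.62), at 4.45 for Ugt1a6 (nearest 4.25), at -0.52 for Bst2 (nearest 0.60) and at -1.55 for Gja3 (nearest 0.91). Array 1 was apart at 3.10 for Eng (nearest 2.75). Over all measured genes, array 3 was the high outlier for 282 genes, against 50, 81 and 77 for arrays 1, 2 and 4.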

How the results depend on the processing

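Normexp background correction moved the share of signal in the 100 brightest genes to 23.7% and the median SD to 0.523. Without probes of a repeat, a shared run or the mitochondrial genome, an alternative added after seeing the data, the share was 23.9%. The cause was not tested, except that the latter leaves out many of the 100 brightest probes, though not the first 3. The count of measured genes was 21365 under the positive and significant mark and 16050 where every spot had to be well above background. The median SD was 0.310 with quantile normalization and 0.315 in the deposited value table. Leaving out each array gave 16232 to 17544 genes measured on the remaining 3, a share of 28.4% to 30.8% and a median SD of 0.267 to 0.327, lowest without array 3. Scan day called 0 genes in every setting run, with 7 to 2095 genes at an unadjusted p under 0.05, most without array 2, where 1 array of the later day is assumed to vary like the others. Among 276 genes the levels of 0 moved beyond their SD with quantile normalization or total signal scaling, 234 with normexp, 47 with the mean of all probes and 10 without repeat, shared or mitochondrial probes, where 234 kept within it and the rest had no probe left. Scaling to measured probes lowered every level by about 1.20. No paired analysis was possible because 1 group is described and no groups are compared.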
